A study of Mus musculus with 10 samples.

Results

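IGKV6 is a family of mouse kappa light chain variable genes. Its 8 genes examined here were IGKV6-13, IGKV6-14, IGKV6-15, IGKV6-17, IGKV6-20, IGKV6-23, IGKV6-25 and IGKV6-32, and a clonotype was counted to one of them where its table listed that V gene alone. A clonotype was one row of a table, a rearrangement with its V gene, J gene and CDR3 amino acid sequence. The family held 3132 of the 44103 Igk clonotypes, and 7 of the 8 genes were seen among 103 Igk V genes. The Igk loci were amplified from genomic DNA of sorted peritoneal cavity cells of C57BL/6 mice that were 6 to 8 weeks old. There were 3 groups of 2 libraries: wild-type (WT) B-1a cells (sorted as B220lo CD5+), B-1a cells of Igll1-/- mice with the same gate, and WT B-2 cells (sorted as B220hi). Igll1 encodes lambda5, a part of the surrogate light chain (SLC), and Igll1-/- mice lack it in every cell. There were no Igll1-/- B-2 libraries among the samples, so the genotypes were compared in B-1a cells only, and both WT groups carried the intact gene. The labels did not say whether both replicates of a group came from separate mice, and p-values therefore measure the spread between these libraries, which may be technical.

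During light chain rearrangement a V gene is joined directly to a J segment, with no D segment between them. The end of the V gene encodes most of CDR3, the loop at the centre of the antigen binding site, and the J segment encodes its last residues. Where a first joint is out of frame or gives a self-reactive receptor, a V gene farther upstream can be joined to a J segment farther downstream, which is called receptor editing. B-1a cells are a long-lived B cell type of the body cavities that secretes much of the natural IgM. In the classical order of B cell development SLC pairs with a heavy chain before a light chain is made. The study proposes that B-1a cells typically develop without this step, through Igk rearrangement at an earlier stage. The IGKV6 genes code for ordinary V domains and lie among the IGKV8 genes. In the order of RefSeq genes (GRCm38.p6, used for names and neighbours only) the stretch from IGKV6-32 to IGKV6-13 held 9 IGKV6 genes and 12 IGKV8 genes. IGKV6-13 lay nearest the J segments, next to IGKV3-12-1, and IGKV6-32 lay farthest, next to IGKV7-33. The ninth gene, IGKV6-29, is not among the genes examined and had 0 to 8 clonotypes in a library.

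The libraries held 5701 to 8652 clonotypes from 214000 to 288396 reads. IGKV4-91, a light chain gene typical of B-1a cells and used here to check the sort, made up 6.54% and 6.03% of clonotypes in WT B-1a, 2.77% and 3.17% in Igll1-/- B-1a and 1.44% and 1.30% in WT B-2 libraries. IGKV14-126, another light chain gene of B-1a cells, made up 4.89% and 5.29%, 0.684% and 0.735%, and 1.65% and 1.47% in the same order, so in the Igll1-/- libraries it lay below B-2. Igll1-/- replicate 1 had the fewest clonotypes, and 1.57% of its reads had a CDR3 of over 15 residues, against 0.0638% to 0.218% in the other libraries. It also stood apart from its partner in the IGKV6 genes. The counts of the 7 genes differed between both Igll1-/- replicates (chi-square 33.9 on 6 degrees of freedom, p = 7.06e-06), less so between both B-2 replicates (13.7, p = 0.0331), and within counting error between both WT B-1a replicates (4.56, p = 0.601). Over all V genes the replicates of each group differed by more than counting error, so no library's table was a copy of that of its partner. The chi-square test takes clonotypes as independent. Many differed by 1 residue from a larger clonotype (given below), so its p-values may be too small.

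The main CDR3 of each gene is shown first, because the results that follow name clonotypes by it. For each gene the largest clonotype, by the mean over the 6 libraries of its percent of reads, was joined to IGKJ5 and had 9 residues. CDR3 is written here without the conserved cysteine before it and the conserved phenylalanine after it.
IGKV6-14: LQHWNYPLT
IGKV6-15: QQYNSYPLT
IGKV6-17: QQHYSTPLT
IGKV6-20: GQSYSYPLT
IGKV6-23: QQYSSYPLT
IGKV6-25: QQHYSTPLT
IGKV6-32: QQDYSSPLT

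The first 7 residues differed between the genes, except that IGKV6-17 and IGKV6-25 shared QQHYSTP. The CDR3 therefore did not tell these genes apart, and their clonotypes rested on the authors' assignment from the rest of the short read. The last 2 residues followed the J segment: the main 9-residue form of IGKV6-17 was QQHYSTPWT with IGKJ1, QQHYSTPYT with IGKJ2, QQHYSTPFT with IGKJ4 and QQHYSTPLT with IGKJ5. Among productive reads with 9 residues, 88.1% to 100% carried the first 7 residues of their gene in every library. By clonotypes the share was lower for nearly every gene and library. It ran from 18.1% to 32.3% for IGKV6-17 and reached 58.8% for IGKV6-25 and 75.0% for IGKV6-20, while for IGKV6-14 in Igll1-/- replicate 1, which had 4 clonotypes, it was 100% by both measures. Of the family's clonotypes, 55.7% to 68.7% in a library differed by 1 residue from a clonotype of the same V gene, J gene and length with at least 10 times their reads, against 60.3% to 63.3% over all V genes. The share that rested on 1 read was 55.4% to 61.8%, against 57.9% to 59.4% over all V genes. The cause of these variants was not tested, and counts of clonotypes were therefore given beside reads.

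The family took a larger share of the B-2 than of the B-1a repertoire. IGKV6 genes made up 6.15% and 7.31% of clonotypes in WT B-1a, 4.86% and 6.27% in Igll1-/- B-1a, and 8.63% and 8.35% in WT B-2 libraries. Both B-2 libraries lay above all 4 B-1a libraries, and both B-1a groups overlapped. By reads the shares were 4.27% and 5.58%, 3.28% and 4.0%, and 8.58% and 8.94%, so the gap to B-2 was wider and the Igll1-/- libraries lay below both WT B-1a libraries. A lower share of a V gene cannot tell fewer cells that carry it from poorer amplification of it. When near-identical clonotypes were counted as 1, the gap between WT groups disappeared. The shares were then 7.0% and 7.2% in WT B-1a, 5.19% and 6.12% in Igll1-/- B-1a and 6.94% and 7.05% in WT B-2. The share of family clonotypes with such a larger neighbour was 68.7% and 66.5% in B-2 against 55.7% to 63.0% in the B-1a libraries. Over all V genes it was 62.7% and 61.4% in B-2 and 60.3% to 63.3% in the B-1a libraries, so the groups overlapped there. Why the family's share was higher in B-2 was not tested. With at least 10 reads per clonotype the B-2 share was 8.42% ± 0.29 (SD, n = 2) against 6.62% ± 0.21 in WT B-1a and 4.53% ± 0.88 in Igll1-/- B-1a.

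**Figure D1:**
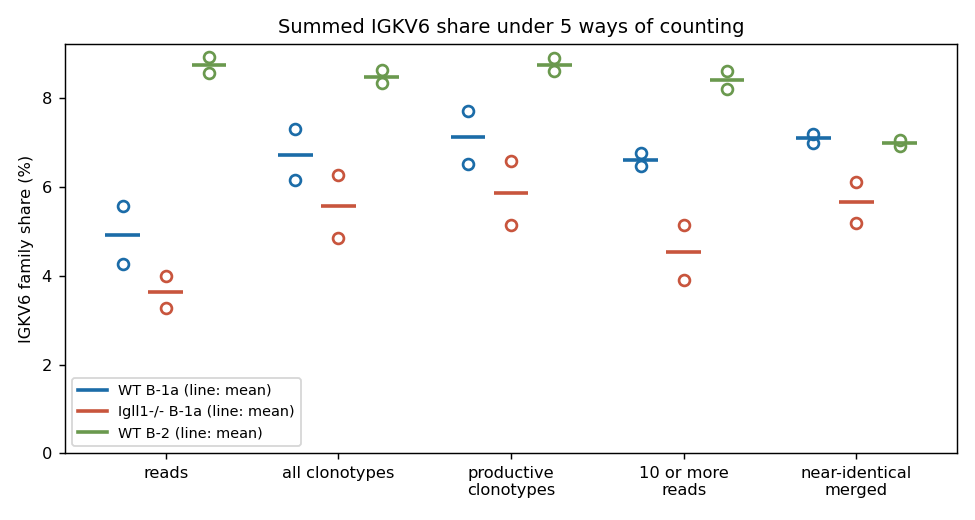
Summed IGKV6 share in percent, counted 5 ways: by reads, by all clonotypes, by productive clonotypes, by clonotypes with 10 or more reads, and with near-identical clonotypes merged. Points are the 2 libraries of a group and lines are means. The B-2 libraries lie above the WT B-1a libraries in the first 4 ways and overlap them (6.94% and 7.05% against 7.0% and 7.2%) after merging.

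IGKV6-17 was the most used gene of the family in each group by the mean. It took 2.18% and 2.69% of clonotypes in WT B-1a, 0.930% and 2.05% in Igll1-/- B-1a, and 2.60% and 2.81% in WT B-2. In the B-2 libraries it held ranks 6 and 5 among all V genes. The low value was Igll1-/- replicate 1, in which IGKV6-17 held 950 reads, against 3596 in replicate 2. IGKV6-15 was next in WT B-1a cells, at 1.34% and 1.62%, against 0.982% and 1.01% in Igll1-/- B-1a and 1.27% and 1.39% in WT B-2. Both Igll1-/- libraries lay below the other 4. IGKV6-20, whose CDR3 begins with glycine, took 0.857% and 1.03%, 0.298% and 0.648%, and 0.994% and 0.708% in the same order. The lowest of these was again Igll1-/- replicate 1.

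IGKV6-23 had another pattern. It took 0.581% and 0.833% of clonotypes in WT B-1a, 1.56% and 1.28% in Igll1-/- B-1a, and 1.62% and 1.54% in WT B-2. Both WT B-1a libraries were low, and the Igll1-/- libraries overlapped B-2. By reads the WT B-1a libraries held 0.405% and 0.536%, the Igll1-/- libraries 1.51% and 0.696% and the B-2 libraries 1.43% and 1.76%. IGKV6-23 was the fourth gene of the family in WT B-1a cells and the second in both other groups. IGKV6-25 took 0.498% and 0.373% in WT B-1a, 0.316% and 0.331% in Igll1-/- B-1a, and 0.751% and 0.929% in WT B-2, so it was higher in B-2 than in either B-1a group. IGKV6-32, the gene farthest from J, took 0.456% and 0.531%, 0.702% and 0.648%, and 0.959% and 0.639%. IGKV6-14 was the least used gene that was seen, at 0.235% and 0.230%, 0.0702% and 0.303%, and 0.439% and 0.325%. With 4 to 38 clonotypes in a library it carried the largest counting error. The Wilson 95% confidence interval of its lowest value, 4 clonotypes in Igll1-/- replicate 1, ran from 0.0273% to 0.180%. IGKV6-13 had 0 clonotypes in each of the 6 libraries, which allows a share of up to 0.0347% to 0.0526% (3 clonotypes). These intervals cover counting error only.

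In the order of the means, IGKV6-17, IGKV6-15, IGKV6-20 and IGKV6-23 did not overlap their next neighbour in WT B-1a cells, while IGKV6-32 and IGKV6-25 overlapped. In Igll1-/- B-1a cells IGKV6-17 and IGKV6-23 overlapped at the top, as did IGKV6-32, IGKV6-20 and IGKV6-25 lower down. In WT B-2 cells IGKV6-17, IGKV6-23 and IGKV6-15 were separate and IGKV6-20, IGKV6-25 and IGKV6-32 overlapped. Within the family, IGKV6-23 made up 9.44% and 11.4% of IGKV6 clonotypes in WT B-1a, 32.1% and 20.5% in Igll1-/- B-1a, and 18.7% and 18.5% in WT B-2. All 4 libraries of the other groups lay above WT B-1a.

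**Figure D2:**
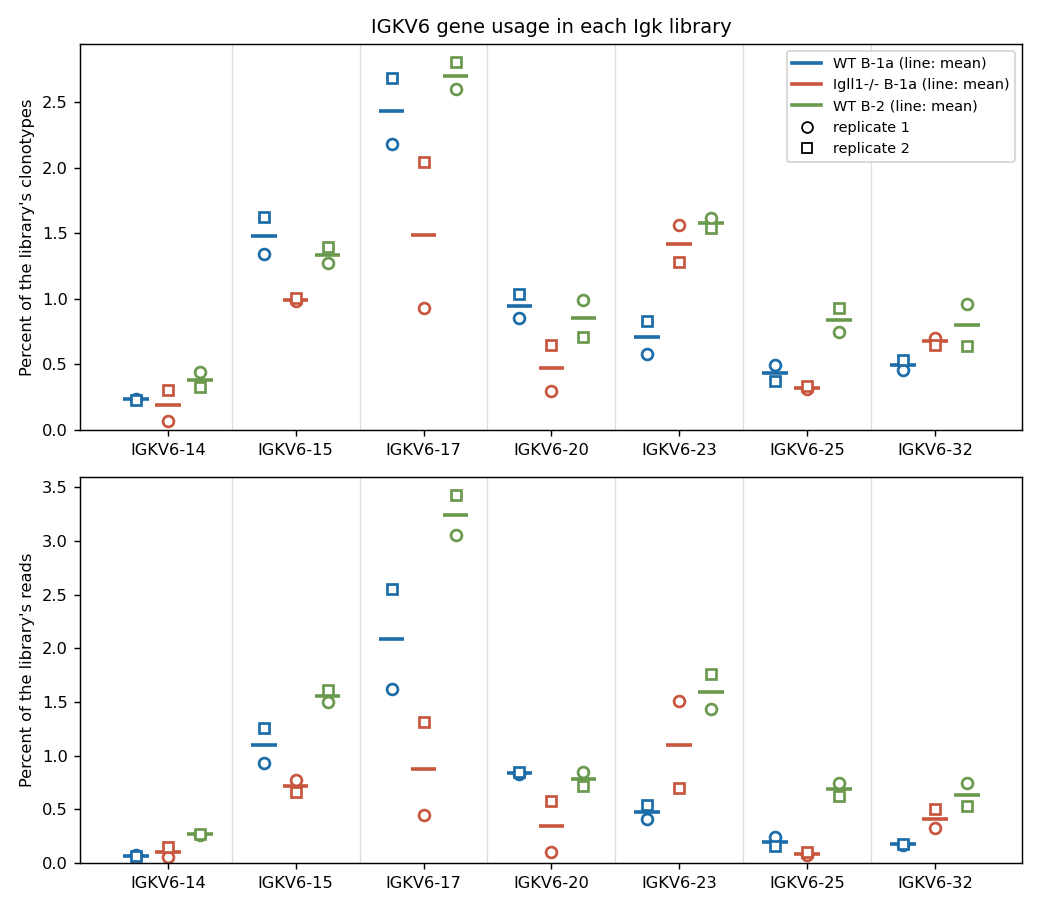
Percent of clonotypes (upper panel) and of reads (lower panel) taken by each IGKV6 gene in the 6 Igk libraries, on linear axes from 0. Circles are replicate 1, squares are replicate 2 and lines are group means. IGKV6-23 is low in both WT B-1a libraries (0.581% and 0.833% of clonotypes), and IGKV6-17 is low in Igll1-/- replicate 1 (0.930%).

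The comparison of Igll1-/- with WT B-1a cells asks how the loss of SLC affects V gene usage. IGKV6-23 was 2.01-fold higher in Igll1-/- B-1a cells (log2 fold change 1.01, SE 0.34, adjusted p = 0.0574 from the quasi-likelihood test of edgeR, with the Benjamini-Hochberg method applied over 84 V genes). This missed the threshold of 0.05. IGKV6-20 had a log2 fold change of −0.98 (SE 0.46), IGKV6-17 of −0.70 (SE 0.32) and IGKV6-15 of −0.57 (SE 0.31), with edgeR adjusted p-values of 0.171, 0.168 and 0.240. IGKV6-25 (−0.43), IGKV6-14 (−0.27) and IGKV6-32 (0.45) lay within about 1 SE of 0. Of the 7 genes tested 0 were called by edgeR, against 15 of 84 V genes or 17.9% of all V genes tested. At an unadjusted p under 0.05 there was 1 gene, IGKV6-23 (25 of 84 V genes in all), and DESeq2 and TMM normalization each called this gene (adjusted p = 0.0182 and 0.0189). The median log2 fold change was −0.43 over the 7 genes and −0.17 over all 84. TMM raised the median of all V genes by 0.26 and DESeq2 by 0.25, and calls over all V genes changed from 7 higher and 8 lower to 10 higher and 6 lower with TMM and 8 higher and 6 lower with DESeq2. Merging near-identical clonotypes moved IGKV6-23 to 0.39 (edgeR adjusted p = 0.563). Its clonotypes with at least 10 reads numbered 10 and 9 in WT B-1a and 7 and 11 in Igll1-/- B-1a, so both groups overlapped there. Over 19 alternatives IGKV6-23 had a log2 fold change as low as 0.23 and an edgeR adjusted p as high as 0.785. Over the 6 fits that each left out 1 library, it was called without Igll1-/- replicate 1 (log2 fold change 0.86, edgeR adjusted p = 0.0385) and without Igll1-/- replicate 2 (1.14, adjusted p = 0.00284), and not without any of the other 4 libraries (adjusted p 0.101 to 0.277). Without Igll1-/- replicate 2, which leaves replicate 1 alone, IGKV6-17 and IGKV6-20 were called as well (edgeR adjusted p = 7.90e-07 and 0.0101). Calls over all V genes rose there to 31 of 84. A lone library is assumed there to vary like the others.

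The comparison of Igll1-/- B-1a with WT B-2 cells sets the cells made without SLC beside conventional B cells. All 7 genes had a log2 fold change below 0, and IGKV6-25 fell by 1.37 on the log2 scale (SE 0.41, 2.59-fold, edgeR adjusted p = 0.0386). IGKV6-25 had 18 and 23 clonotypes in Igll1-/- B-1a and 65 and 80 in WT B-2 libraries, and 152 and 281 reads against 2149 and 1804. By reads the log2 fold change was −2.98 (edgeR adjusted p = 0.0189). IGKV6-25 was the 1 gene called of 7 tested, against 22.6% of all V genes (19 of 84). The other 6 genes ran from −0.99 for IGKV6-14 to −0.16 for IGKV6-23, and IGKV6-17 came next by p (−0.85, SE 0.32, edgeR adjusted p = 0.0770). The median was −0.83 over the 7 genes and −0.49 over all 84, so most V genes lay below 0 here. TMM normalization raised the median of all V genes by 0.46, and DESeq2 by 0.54, after which 3 of the 7 genes lay above 0 with either, among them IGKV6-15 (0.04 with TMM) and IGKV6-23 (0.31). Calls over all V genes changed from 6 higher and 13 lower to 7 higher and 1 lower with TMM and to 8 higher and 0 lower with DESeq2, which called 0 IGKV6 genes and gave no adjusted p for IGKV6-25.

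The call of IGKV6-25 was lost under several settings. It was −0.91 with TMM normalization (edgeR adjusted p = 0.143) and −0.15 with near-identical clonotypes merged (edgeR adjusted p = 0.783), when it had 11 and 14 clonotypes in Igll1-/- B-1a and 17 and 22 in WT B-2. It was lost without any 1 library except Igll1-/- replicate 2 (edgeR adjusted p 0.0405 to 0.275 over these fits).

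The comparison of WT B-1a with WT B-2 cells gives the difference between both cell types with SLC present. IGKV6-23 was 2.24-fold lower in B-1a cells (log2 fold change −1.16, SE 0.33, edgeR adjusted p = 0.0662), and IGKV6-25 had a log2 fold change of −0.94 (SE 0.40, adjusted p = 0.211). IGKV6-32 and IGKV6-14 had −0.69 and −0.71 with SEs of 0.40 and 0.56. IGKV6-15, IGKV6-17 and IGKV6-20 differed by 0.15, −0.15 and 0.15, each less than its SE. Of the 7 genes 0 were called by edgeR and 0 by DESeq2, against 3.57% of all V genes tested (3 of 84 by edgeR), and 2 genes, IGKV6-23 and IGKV6-25, had an unadjusted p under 0.05 (18 of 84 in all). IGKV6-23 was called by edgeR without Igll1-/- replicate 1 or replicate 2, libraries that only add to the shared spread here. Calls over all V genes also rose in those fits. Leaving out a WT library of either group gave no call of IGKV6-23. These 3 comparisons share their libraries, so the low WT B-1a value of IGKV6-23 enters both comparisons in which the gene stands out. For a single gene, an exact permutation test of 2 libraries against 2 cannot give a two-sided p below 0.333.

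**Figure D3:**
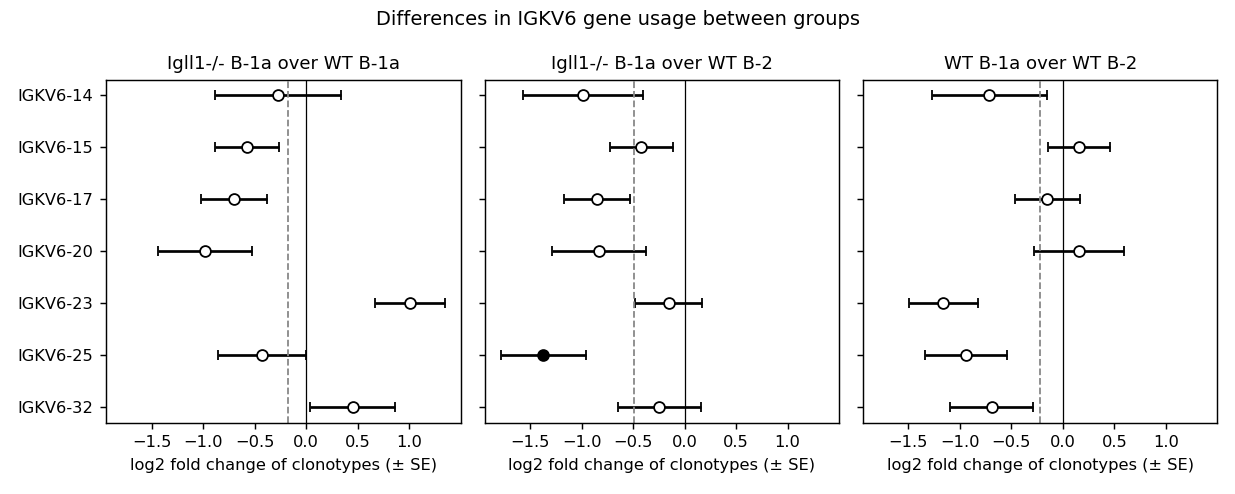
Log2 fold change of the share of clonotypes of each IGKV6 gene in the 3 comparisons, with bars of 1 SE from edgeR's quasi-likelihood fit. The filled point, IGKV6-25 in Igll1-/- B-1a over WT B-2 (−1.37), is the one with an adjusted p under 0.05, and dashed lines mark the median of all 84 V genes (−0.17, −0.49 and −0.22).

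Joints with IGKJ5, the J segment farthest downstream, were the most frequent in the family. They made up 47.5% to 58.1% of family clonotypes in a library, against 46.1% to 52.0% over all V genes. Shares of J segments depend on the primers and on the product size kept, and the effect of these was not tested. IGKJ1 and IGKJ2 followed, IGKJ4 had 0.905% to 1.78%, and IGKJ3, which is not functional, had 0 to 4 clonotypes. The genes differed in their J segments. IGKV6-20 was joined to IGKJ5 in 57.4% to 88.9% of its clonotypes and to IGKJ1 in 1.39% to 11.8%. IGKV6-17 was joined to IGKJ1 in 24.9% to 40.8%.

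A pair of joints differed between Igll1-/- and WT B-1a cells. IGKV6-23 with IGKJ1 had 8 and 6 clonotypes in WT B-1a, 40 and 28 in Igll1-/- B-1a, and 24 and 18 in WT B-2 libraries, and rose 5.5-fold in Igll1-/- over WT B-1a cells (log2 fold change 2.46, SE 0.53, edgeR adjusted p = 0.0134 over 202 V-J pairs). The Igll1-/- libraries lay above all others. IGKV6-20 with IGKJ2 had 11 and 18, 2 and 2, and 24 and 19 clonotypes in the same order. It fell by 2.63 on the log2 scale against WT B-1a (SE 0.65, edgeR adjusted p = 0.0247) and by 2.91 against WT B-2 (SE 0.63, edgeR adjusted p = 0.0174). By reads this joint held 345 and 234 reads in WT B-1a, 2 and 17 in Igll1-/- B-1a, and 471 and 542 in WT B-2. The clonotype GQSYSYPYT, the main form of this joint, had 271 and 197, 1 and 9, and 373 and 460 reads. IGKV6-20 with IGKJ5 had log2 fold changes of −0.73 (SE 0.47, against WT B-1a) and −0.35 (SE 0.47, against B-2), with edgeR adjusted p-values of 0.361 and 0.607.

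In all, 2 of 18 IGKV6 pairs were called in Igll1-/- against WT B-1a cells, against 10.4% of all pairs. In Igll1-/- B-1a against WT B-2 cells 1 of 18 was called, against 12.4%. In WT B-1a against WT B-2 cells 0 of 18 were called by edgeR and 0 by DESeq2, against 2.97% of all pairs by edgeR, and 4 had an unadjusted p under 0.05 (39 of 202 in all). Scaling moved the split over all pairs: in Igll1-/- against WT B-1a cells it was 7 higher and 14 lower, 12 and 12 with TMM, and 9 and 6 with DESeq2. In Igll1-/- B-1a against WT B-2 cells it was 9 higher and 16 lower, 18 and 11 with TMM, and 13 and 2 with DESeq2. In WT B-1a against WT B-2 cells it was 5 and 1, 8 and 1, and 7 and 0. After merging near-identical clonotypes IGKV6-23 with IGKJ1 had 4 and 5, 7 and 7, and 10 and 8 clonotypes and IGKV6-20 with IGKJ2 had 4 and 10, 2 and 2, and 4 and 6. Both pairs were then below the minimum for a test. Leaving out either WT B-1a library ended both calls against WT B-1a (edgeR adjusted p 0.0784 to 0.145). IGKV6-20 with IGKJ2 was otherwise called against WT B-1a without Igll1-/- replicate 1 (edgeR adjusted p = 0.0412) and lost without Igll1-/- replicate 2 or either B-2 library (0.0672 to 0.0802). Against B-2 it was called without either Igll1-/- library (edgeR adjusted p = 0.0239 and 0.0368) and lost without any of the other 4 libraries (0.0509 to 0.202).

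**Figure D4:**
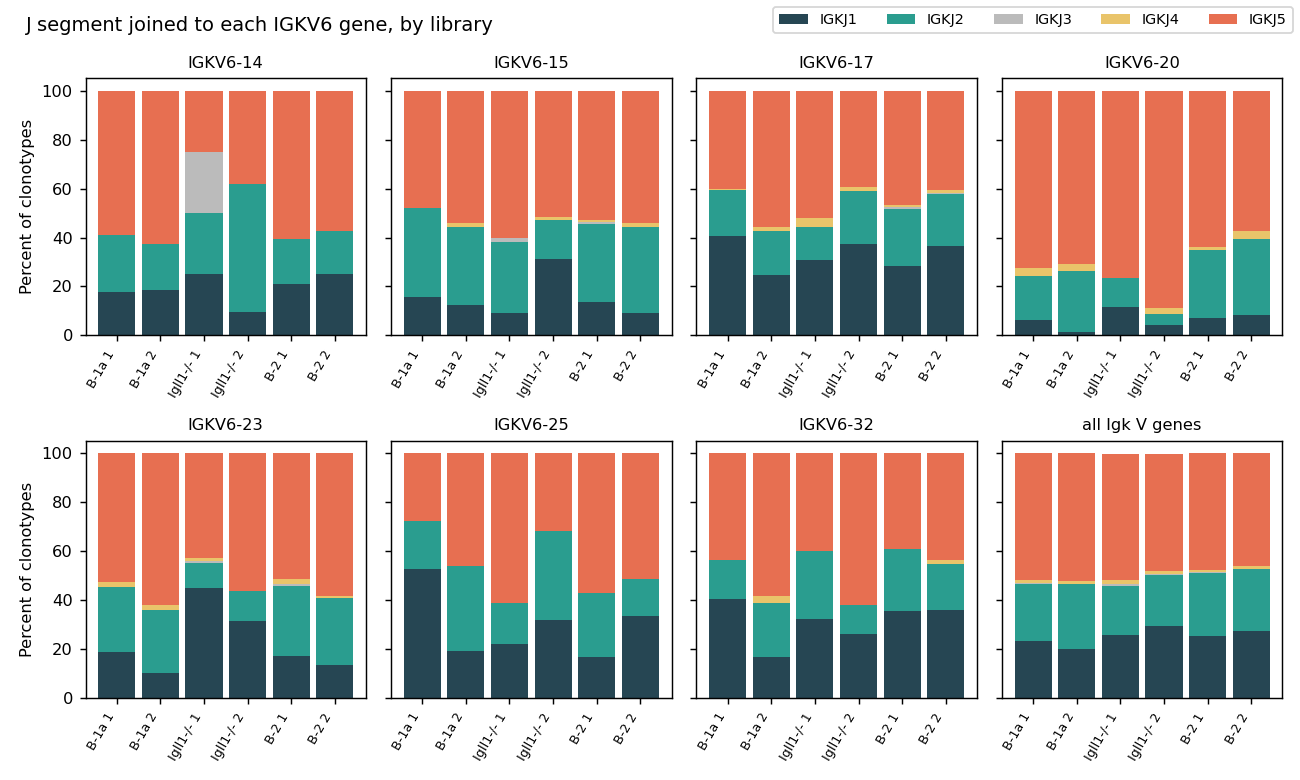
Stacked bars of the percent of clonotypes joined to each J segment, for 7 IGKV6 genes and for all Igk V genes, with 1 bar per library (B-1a and B-2 are WT, and Igll1-/- is B-1a). IGKV6-23 shows more IGKJ1 in both Igll1-/- libraries (44.9% and 31.5%, against 10.3% to 19.0% in the other libraries), and IGKV6-20 shows less IGKJ2 there (11.8% and 4.44%).

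IGKV6 rearrangements were mostly productive, that is in frame and without a stop codon. The productive share of family clonotypes was 91.7% and 91.6% in WT B-1a, 92.1% and 91.5% in Igll1-/- B-1a and 91.4% and 91.0% in WT B-2, against 85.9% to 88.2% over all V genes. The family's 6 values spanned about 1 percentage point and lay above the 6 values of all V genes. By gene and group the means ran from 87.9% ± 0.9 (SD, n = 2; IGKV6-20 in WT B-2) to 97.6% ± 3.4 (IGKV6-14 in Igll1-/- B-1a). No difference in productive share between groups passed the test for any of the 7 genes. In each comparison 0 were called by edgeR, against 3.57%, 1.19% and 1.19% of all V genes. At an unadjusted p under 0.05 there were 0 too, against 8.33%, 9.52% and 2.38% of all V genes.

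Unproductive joints are carried along without being part of the receptor, and they were counted alone as a setting chosen after the data were seen. IGKV6-15, IGKV6-17 and IGKV6-23 had enough of them for a test. IGKV6-23 had 4 and 3 unproductive clonotypes in WT B-1a, 10 and 11 in Igll1-/- B-1a and 14 and 13 in WT B-2. It rose 3.39-fold in Igll1-/- over WT B-1a cells (log2 fold change 1.76, SE 0.39, edgeR adjusted p = 0.0220 over 32 V genes), and was lower in WT B-1a than in B-2 cells (log2 fold change −1.84, SE 0.38, edgeR adjusted p = 0.0228). IGKV6-17 had 11 and 19, 4 and 8, and 18 and 28 unproductive clonotypes in the same order. It fell by 1.65 on the log2 scale in Igll1-/- B-1a against WT B-2 cells (SE 0.49, edgeR adjusted p = 0.0486). By reads the order of both B-1a groups was the opposite for IGKV6-23, while B-2 was highest by either count. Unproductive IGKV6-23 joints held 103 and 86 reads in WT B-1a, 23 and 11 in Igll1-/- B-1a and 165 and 148 in WT B-2. The 11 unproductive clonotypes of Igll1-/- replicate 2 rested on 1 read each, so the higher count in Igll1-/- cells was one of small clonotypes. Unproductive IGKV6-17 held 13 and 29, 5 and 10, and 162 and 53 reads. The genes called were 1 of 3 in each comparison, against 25% of V genes in both comparisons with Igll1-/- cells and 9.38% between the WT groups. A recurring unproductive sequence of IGKV6-23 was QQYSS*LT with IGKJ5, in which the asterisk is a stop codon. It made up 93 of the 103 and 83 of the 86 unproductive IGKV6-23 reads in WT B-1a, nearly all of them. It held 0 and 0 reads in Igll1-/- B-1a, and 60 and 113 in WT B-2. It was thus read in all 4 WT libraries and in neither Igll1-/- library (edgeR adjusted p = 0.128 against WT B-1a and 0.115 against B-2), and DESeq2 called it in both comparisons. The sequence was chosen after the data were seen. Other IGKV6 joints with a stop codon were lower by reads in Igll1-/- than in WT B-1a cells too, none called by edgeR. Their log2 fold changes were −8.55 and −7.56 (QQYNS*LT and QQYNS*YT of IGKV6-15), −4.79 (IGKV6-20), −2.64 (QQYSS*YT of IGKV6-23) and −2.42 (IGKV6-17).

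The CDR3 of the family had 9 residues in 71.1% to 78.8% of productive clonotypes and 81.6% to 92.0% of productive reads in a library. Over all V genes 9 residues made up 71.6% to 79.2% of productive clonotypes. By reads, IGKV6-15, IGKV6-17, IGKV6-20 and IGKV6-23 had their lowest 9-residue share in an Igll1-/- library. The lowest library was WT B-1a for IGKV6-14 (83.7%) and IGKV6-25 (90.7%), and WT B-2 replicate 1 for IGKV6-32 (80.7%). In Igll1-/- replicate 1 the 9-residue share of productive reads was 55.1% for IGKV6-20 and 69.9% for IGKV6-17, with 36.9% and 29.3% at 8 residues. In Igll1-/- replicate 2, 30.6% of the productive reads of IGKV6-23 had 9 residues and 43.0% had 8. These shares were 98.6% and 1.09% in Igll1-/- replicate 1. In the other 4 libraries 74.1% to 90.6% had 9 residues.

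The large IGKV6-23 clonotypes differed between both Igll1-/- libraries. In replicate 1 the largest was QQYSSYPWT with IGKJ1, with 1825 reads or 56.6% of the reads of the gene, and QQYSSYPLT with IGKJ5 came next with 1121 reads. In replicate 2 QQYSSYPWT had 3 reads. The largest there was QQYSSYLT with IGKJ5, which lacks the proline, with 532 reads or 27.9%, followed by QQYSSY with 442 reads. In the other 4 libraries QQYSSYPLT with IGKJ5 led with 47.6% to 63.2% of the reads of the gene, and QQYSSYPWT had 25, 45, 116 and 78 reads. The IGKJ1 joints that set both Igll1-/- libraries above WT B-1a were therefore led by different sequences in each. In replicate 2 QQYSSYPLT with IGKJ1 led them with 217 of 490 reads.

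IGKV6-17 was also led by different clonotypes. QQHYSTPLT with IGKJ5 led in both WT groups, with 27.9% and 61.2% of the reads of the gene in WT B-1a and 38.7% and 43.3% in WT B-2. In Igll1-/- replicate 1 QQHYSTPRT with IGKJ1 led with 268 reads, and in replicate 2 QQHYSTPYT with IGKJ2 led with 1221. IGKV6-15 and IGKV6-20 had the same leader throughout: QQYNSYPLT and GQSYSYPLT, both with IGKJ5, led in each of the 6 libraries, with 50.7% to 61.5% and 41.4% to 74.9% of the reads of their gene. IGKV6-32 was led by QQDYSSPLT in each library, at 32.4% to 62.7%. IGKV6-14 was led by LQHWNYPLT in 5 libraries and by LQHWNYPYT with IGKJ2 in Igll1-/- replicate 2. IGKV6-25 was led by QQHYSTPLT in 4 libraries, and by QQHYSTPWT with IGKJ1 in WT B-1a replicate 1 and Igll1-/- replicate 2.

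**Figure D5:**
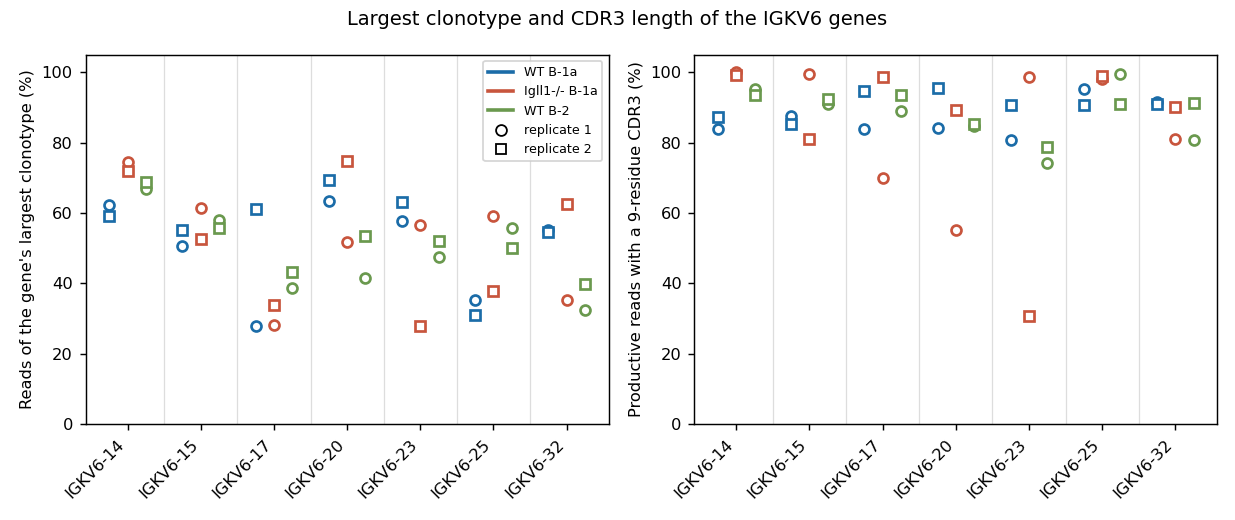
Percent of the reads of each IGKV6 gene in its largest clonotype (left) and percent of its productive reads with a CDR3 of 9 residues (right), by library. Circles are replicate 1 and squares replicate 2. In the right panel IGKV6-23 in Igll1-/- replicate 2 lies at 30.6%, below all other points.

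The largest clonotypes were shared by all libraries. Of 1593 distinct IGKV6 clonotypes 59 (3.70%) were found in each of the 6 libraries, and these held 81.1% to 90.4% of the family's reads. Over all V genes 887 of 20393 (4.35%) were in all 6 and held 79.4% to 89.3% of reads. The sharing within the family was close to that of the whole repertoire. IGKV6-23 in Igll1-/- replicate 2 was lower, with 62.6% of its reads in shared clonotypes, as was IGKV6-20 in Igll1-/- replicate 1, with 53.3%. Of the distinct IGKV6 clonotypes 1051 (66.0%) were found in 1 library.

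When the reads of single clonotypes were compared, 0 of 107 IGKV6 clonotypes were called by edgeR in each comparison, against 0.0756%, 0% and 0.0756% of 1323 clonotypes tested. At an unadjusted p under 0.05 there were 21 in Igll1-/- against WT B-1a, 41 in Igll1-/- B-1a against WT B-2 and 17 in WT B-1a against WT B-2. These were 19.6%, 38.3% and 15.9% of the IGKV6 clonotypes, against 21.2%, 28.0% and 15.6% of all clonotypes tested. DESeq2 called 18, 17 and 3 IGKV6 clonotypes in the same order (16.8%, 15.9% and 2.80%) and 165, 178 and 49 of all 1323 (12.5%, 13.5% and 3.70%), so the count depended on the tool.

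The IGKV8 family, most of whose genes lie among the IGKV6 genes, was compared as a list. Of 7 IGKV8 genes tested, IGKV8-34 beyond IGKV6-32 among them, 1 was called lower in Igll1-/- than in WT B-1a cells. In Igll1-/- B-1a against WT B-2 cells 1 was called higher and 1 lower. In the order Igll1-/- against WT B-1a, Igll1-/- B-1a against WT B-2 and WT B-1a against WT B-2, their median log2 fold changes were −0.24, −0.39 and −0.18, against −0.43, −0.83 and −0.69 for IGKV6. The 6 genes with position numbers from 13 to 32, which lie among the IGKV6 genes, had medians of −0.32, −0.44 and −0.09. The V genes whose share over the 6 libraries was most like that of the summed family were IGKV3-12, IGKV10-94 and IGKV4-77, with a root mean square difference of 0.22, 0.23 and 0.24 on the log2 scale after centring each on its own mean. IGKV3-12 made up 0.733% and 1.03% of clonotypes in WT B-1a, 0.509% and 0.951% in Igll1-/- B-1a, and 1.43% and 1.28% in WT B-2.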

How the data were processed

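Igk rearrangements were amplified from genomic DNA with a degenerate Vκ primer and primers for B-1a-biased V genes, products of 100 to 280 bp were kept, and libraries were sequenced on an Illumina MiSeq per the labels and a HiSeq per the study's methods. No molecular barcodes were used, so reads are not independent molecules, and shares depend on primers. The authors assigned genes with IMGT/High-V-QUEST (version not given in the sources used here) and deposited, per library, clonotypes with a count of reads and the percent identity to the V gene. The 6 Igk tables were used and 4 Igh tables were not.

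Clonotypes listed with several V genes (5.72% to 6.68%) stayed in library totals and were counted to no gene. 3 to 8 of these per library named an IGKV6 gene. Median identity was 90.5% to 91.0% for the family and 92.8% to 93.3% over all V genes. V genes that reached 10 clonotypes in 2 or more libraries were fitted over all 6 libraries with edgeR 4.0.16 (R 4.3.3; quasi-likelihood test, all clonotypes as library size, Benjamini-Hochberg adjustment over all features, threshold 0.05). V-J pairs, productive against unproductive clonotypes and reads of single clonotypes were fitted likewise. SE was derived from the F statistic. Code was tested on simulated data. DESeq2 1.42.0, TMM, read minimums, merging, fits of only the groups compared, a replicate block and left-out libraries were alternatives. All 8 genes are described, V-J pairs where called, and clonotypes where largest. Members and lists were chosen with earlier results of these data known.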

Additional observations from a re-analysis of the deposited data

How the results depend on the processing

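Comparisons are given in the order Igll1-/- against WT B-1a, Igll1-/- B-1a against WT B-2, and WT B-1a against WT B-2. The deposited counts called 0, 1 and 0 IGKV6 genes and 2, 1 and 0 IGKV6 V-J pairs. Deviations of same-numbered libraries correlated at 0.03 (WT B-1a with Igll1-/-), −0.19 (Igll1-/- with B-2) and 0.0067 (WT B-1a with B-2) over 84 V genes. Same-numbered libraries thus shared no clear shift in usage, which cannot tell whether they were prepared together. With the replicate block, a paired fit, 0, 2 (IGKV6-17 and IGKV6-25) and 0 genes and 1, 1 and 0 pairs were called. Over all features this fit called 17, 18 and 8 of 84 V genes and 18, 13 and 3 of 202 pairs.

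In Igll1-/- against WT B-1a cells IGKV6-23 was called higher with TMM (16 of 84 V genes in all), DESeq2 (14 of 84) or unproductive clonotypes (8 of 32). The last was a setting chosen after seeing the data. With at least 10 reads per clonotype another gene, IGKV6-15, was called lower, 1 of 5 IGKV6 genes tested (14 of 56 V genes in all). In Igll1-/- B-1a against WT B-2 cells 3 genes were called with at least 2 reads (26 of 79 V genes in all). At least 10 reads (10 of 56) and no filter (23 of 103) each called 2. Merging (17 of 80), TMM (8 of 84), DESeq2 (8 of 84) and only the groups compared (7 of 84) each called 0. Between the WT groups 1 gene was called with no filter (11 of 103 V genes in all), only the groups compared (11 of 84) or unproductive clonotypes (3 of 32). V-J pairs called in Igll1-/- against WT B-1a were 0 with at least 2 reads (12 of 126 in all) or merging (9 of 125). The count was 1 with at least 10 reads (9 of 31), DESeq2 (15 of 202) or no filter (15 of 425). The pair called with at least 10 reads was 1 of 3 IGKV6 pairs tested. Both pairs called with the deposited counts had too few such clonotypes to be tested there. Against B-2 the pairs called were 2 with TMM (29 of 202 in all) and 0 with merging (4 of 125), DESeq2 (15 of 202) or no filter (9 of 425). DESeq2 called 18, 17 and 3 clonotypes by reads where edgeR called 0, and 165, 178 and 49 of all 1323. The cause of these differences was not tested.

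Leaving out each library in turn gave 0 to 3, 0 to 4 and 0 to 1 genes and 0 to 5, 0 to 6 and 0 to 2 pairs called, with the highest counts for genes and pairs in both Igll1-/- comparisons without Igll1-/- replicate 2. Calls over all features rose there too, to 31 and 39 of 84 V genes and 39 and 47 of 201 pairs.

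These log2 fold changes, none of them called with the deposited counts, changed sign. IGKV6-14 in Igll1-/- against WT B-1a was 0.62 by reads and ran from −1.70 to 0.38 over left-out libraries. In Igll1-/- B-1a against WT B-2 cells IGKV6-15 was 0.044 with TMM and 0.12 with DESeq2, IGKV6-23 was 0.31 and 0.39, and IGKV6-32 was 0.081 with merging, 0.22 with TMM and −0.51 to 0.079 over left-out libraries. Between the WT groups IGKV6-15 was −0.50 by reads and −0.22 with at least 2 reads, IGKV6-17 was 0.044 with merging, 0.050 with TMM and 0.14 with DESeq2, and IGKV6-20 ran from −0.072 to 0.42 over left-out libraries. Of the other log2 fold changes under an alternative, 347 kept direction and side of the threshold, 23 came to pass it and 24 no longer passed it. Single-read clonotypes and 2 libraries a group limit the precision.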
